A study of Homo sapiens with 42 samples.

Results

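The cholesterol synthesis and sterol regulation genes examined here are 29 named genes, taken by symbol from a list of genes of this function that was drawn up with earlier results of these data known, out of 20515 entries with a gene symbol in the table of normalized read counts. All 29 were found and all 29 passed the filter for testing (a mean of 10 or more). By role they are 8 enzymes of the mevalonate branch, 12 enzymes that turn farnesyl diphosphate and later intermediates into sterols, 4 genes of the SREBP2 system, and 5 genes of sterol uptake and handling. Their levels were followed in 42 libraries of HAP1 cells, a near-haploid human line derived from a chronic myeloid leukaemia, in 10 groups of 5 genotypes and 2 treatments.

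The treated groups received 200 µM buthionine sulfoximine (BSO) for 48 h, begun after 4 h, and the others had media alone. BSO blocks glutamate-cysteine ligase and so depletes glutathione. The knockout genotypes are labelled neil1, neil2, neil3 and neil123, for knockouts of the DNA glycosylase NEIL1, NEIL2, NEIL3 or all of these, and wt is the wild type. Each treatment has 3 neil1, 3 neil2, 4 neil3, 4 neil123 and 7 wt libraries. The libraries fall into 2 sets by name. All neil1 and neil2 libraries and 3 wt pairs have names without a final letter, and all neil3 and neil123 libraries and 4 wt pairs are labelled as replicates A and B. Each knockout in media was therefore set against the wt libraries of its own set, so that neil1 and neil2 share 3 wt libraries and neil3 and neil123 share 4. The number at the start of a name is called a line here; each knockout has 2 such lines, and the labels do not say whether they are clones. The labels call the replicates biological except for the 3 wt pairs without letters, so p-values that use those measure only a spread between samples that may be technical.

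Animal cells build cholesterol from acetyl-CoA through mevalonate, isoprenoid diphosphates, squalene and lanosterol. When membrane sterols are low, the transcription factor SREBP2 (gene SREBF2) is carried by its escort SCAP from the endoplasmic reticulum to the Golgi and is cut there, and its released fragment switches on most genes of the pathway. When sterols are plentiful, the INSIG proteins hold SCAP and SREBP2 in the endoplasmic reticulum, and INSIG1 is itself a target of SREBP2.

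Promoters are shown for the 3 genes whose RNA changed most with BSO, HMGCS1, MSMO1 and INSIG1, for NPC2, which moved in the opposite direction, and for SREBF2, the only member with a match to the sterol response element searched. Each window runs from 250 bases before to 50 bases after the RefSeq start on GRCh38.p14, written 5′ to 3′ on the gene's own strand. Capitals mark CCAAT boxes (CCAAT, or its reverse complement) and, in SREBF2, also the element TCACCCCAC. The windows are at chr5:43313363-43313662 (minus strand) for HMGCS1, chr4:165327419-165327718 (plus strand) for MSMO1, chr7:155297628-155297927 (plus strand) for INSIG1, chr14:74493463-74493762 (minus strand) for NPC2 and chr22:41832855-41833154 (plus strand) for SREBF2.
HMGCS1: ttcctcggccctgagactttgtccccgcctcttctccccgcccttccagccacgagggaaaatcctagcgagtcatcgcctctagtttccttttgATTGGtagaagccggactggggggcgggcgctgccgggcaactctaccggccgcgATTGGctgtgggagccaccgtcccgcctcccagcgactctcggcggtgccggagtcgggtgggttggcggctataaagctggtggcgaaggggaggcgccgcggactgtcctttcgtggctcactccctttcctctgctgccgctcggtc
MSMO1: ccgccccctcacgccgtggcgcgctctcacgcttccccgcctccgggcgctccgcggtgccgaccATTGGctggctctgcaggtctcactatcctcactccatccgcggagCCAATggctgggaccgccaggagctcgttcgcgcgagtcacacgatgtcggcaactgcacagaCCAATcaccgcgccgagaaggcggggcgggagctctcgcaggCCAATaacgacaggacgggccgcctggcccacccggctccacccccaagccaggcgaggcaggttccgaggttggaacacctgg
INSIG1: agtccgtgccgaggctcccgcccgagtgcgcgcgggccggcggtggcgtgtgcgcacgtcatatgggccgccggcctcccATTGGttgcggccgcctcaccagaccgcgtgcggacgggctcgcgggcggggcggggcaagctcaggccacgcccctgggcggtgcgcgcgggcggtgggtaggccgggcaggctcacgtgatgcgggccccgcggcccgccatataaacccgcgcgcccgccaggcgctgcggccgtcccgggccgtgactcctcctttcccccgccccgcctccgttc
NPC2: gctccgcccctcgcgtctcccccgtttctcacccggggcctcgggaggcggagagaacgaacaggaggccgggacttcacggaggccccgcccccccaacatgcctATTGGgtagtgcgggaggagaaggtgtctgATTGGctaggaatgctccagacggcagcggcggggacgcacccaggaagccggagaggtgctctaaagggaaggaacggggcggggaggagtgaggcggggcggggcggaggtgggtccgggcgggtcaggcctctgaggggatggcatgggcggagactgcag
SREBF2: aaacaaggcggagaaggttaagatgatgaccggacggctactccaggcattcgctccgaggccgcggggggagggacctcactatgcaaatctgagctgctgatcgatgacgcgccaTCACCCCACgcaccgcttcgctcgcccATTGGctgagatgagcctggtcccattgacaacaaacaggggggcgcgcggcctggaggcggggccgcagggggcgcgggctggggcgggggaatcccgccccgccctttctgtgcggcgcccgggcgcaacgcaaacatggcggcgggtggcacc

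Windows were matched for 26 of the 29 genes; ACAT2, FDFT1 and SQLE were not matched. The sterol response element, searched as TCACNCCAC on both strands, stood in 1 of 26 windows (SREBF2, first base at -133 from the start), compared with 1.15% of 27305 promoters of the same length. A CCAAT box on either strand, the site of the factor NF-Y, which acts beside SREBP2 at many sterol genes, stood in 18 of 26 windows (69.2%), compared with 35.7% of those promoters. The 2 motifs do not overlap in the SREBF2 window. Among the 15 genes called lower with BSO in 1 or more genotypes (described next), 11 of 12 matched windows held a CCAAT box, and among the 14 not called lower 7 of 14 did. This split uses the calls of these same data and was not tested. ACAT2, FDFT1 and SQLE, which have no window, are all among the 15. The IDI1 window, which held no CCAAT box, is at chr10:1056655-1056954, outside the GENCODE 29 gene (1039152 to 1049170). Such a match is a description of the letters and not a bound site.

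The libraries held 27.2 to 30.9 M reads, and the 29 genes took 0.236% to 0.327% of them. RNA of the targeted genes, counted over the whole gene, did not separate the genotypes everywhere: NEIL2 was at 170.1 to 242 in neil123 and 239.9 to 328 in neil2, against 338 to 613 in wt, whereas NEIL1 was at 284 to 541 in neil1 and 774 to 1127 in neil123, against 293 to 975 in wt, and NEIL3 at 410 to 714 in neil3 and 381 to 542 in neil123, against 589.7 to 749 in wt. Where the deletions lie is not given in the sources used here, so these counts cannot check the labels. Of the marker lists, hepatocyte markers summed to at most 6.22. The blood list (5 of 10 markers in the table) had PTPRC and LYZ at a median of 0 and summed to at most 727, through CD34 in neil1. In the epithelial list KRT8 and KRT18 had medians of 1456 and 1729.9 and CDH1 of 0.958. Its 4 genes summed to 4966 to 10232 in neil2, 2853 to 11010 in neil1, 2036 to 3903 in neil3 and 1817 to 3856 in neil123, against 1980.1 to 4039 in wt, so that the neil2 libraries lie wholly above wt; the part of these markers in the neil1 and neil2 results was not tested. The mesenchymal list (VIM, CDH2, ZEB2 and FN1) summed to 17208 to 33922. The share of reads from mitochondrially encoded genes was higher with BSO in all 3 neil1, 3 neil2, 4 neil3 and 7 wt pairs, by 0.326 to 2.30 percentage points, and in 2 of 4 neil123 pairs (differences of -0.161 to 0.273). Its part in the BSO results was not tested.

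Per kilobase of exon the genes spanned a wide range in media. FDFT1 was highest, with a median of 1918 normalized reads per kilobase of exon, and its range over the 21 media libraries (1676 to 2203) lay above those of the next genes. These were NSDHL (1431), SQLE (1330), DHCR7 (1313) and LBR (1281), whose ranges overlap one another. INSIG1 had a median of 536 reads per kilobase, INSIG2 79.8, and CYP51A1 was lowest at 61.9. CYP51A1 shares 79.4% of its exon bases with another gene (AC000120.2) on its strand in GENCODE 29, so its reads may have been split and its values are uncertain. The strand setting of the counting is not given, so overlaps make other genes uncertain too. ACAT2 shares exon bases on the other strand with SOD2 (26.5%), SOD2-OT1 (33.9%) and TCP1 (9.2%, median value 17870). GGPS1 shares 37.3% with TBCE on its strand. FDPS (18.6%), HMGCS1 (14.95%) and IDI1 (14.8%) each overlap an antisense gene. HSD17B7, which has a pseudogene, is uncertain as well.

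With BSO the fitted RNA change was negative for most cholesterol synthesis enzymes and for INSIG1 in every genotype, though many of these were not called. The RNA of NPC2, a lysosomal cholesterol export protein, was higher. All calls in neil2, and most in neil123, were made only with replicate pairs as a block. In bulk RNA, fewer cells of a kind and less RNA per cell cannot be told apart. Genes were called at a Benjamini-Hochberg adjusted p under 0.05 in limma over 14331 genes. BSO lowered 8 of the 29 genes in neil1, where it lowered 0.398% of all genes tested, and raised 0 (0.893% of all genes). None was called higher by edgeR or DESeq2 either. At an unadjusted p under 0.05, 15 were lower and 1 higher in neil1, compared with 10.5% of all genes in both directions together. In neil2 limma called 0 (0.0209% lower and 0.154% higher among all genes), and edgeR and DESeq2 called 0 too. At an unadjusted p under 0.05, 12 were lower and 1 higher in neil2, compared with 8.49% of all genes in both directions together. In neil3 BSO lowered 15 (3.08%) and raised 1 (3.56%), and in neil123 it lowered 1 (0.300%) and raised 1 (1.40%). In wt it lowered 11 (6.87%) and raised 2 (7.64%). The share lowered was above that of all genes in neil1, neil3 and wt, while the share raised was close to it in neil3 and wt. The median log2 change of the 29 genes was -0.24 in neil1, -0.12 in neil2, -0.21 in neil3, -0.06 in neil123 and -0.14 in wt, while that of all genes lay between -0.01 and 0.01.

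Every BSO library has a media partner of the same name, and with the pair as a block more genes passed. The block called 17 lower and 1 higher in neil1 (all genes 5.53% lower and 5.50% higher), and 12 lower and 1 higher in neil2 (3.28% and 5.18%). It called 17 lower and 2 higher in neil3 (12.7% and 11.3%), and 11 lower and 1 higher in neil123 (4.75% and 6.92%). In wt it called 17 lower and 3 higher (17.7% and 17.7%). In that fit 9 genes were called lower in all 5 genotypes (HMGCS1, MVK, MVD, FDFT1, SQLE, TM7SF2, MSMO1, DHCR7 and INSIG1), and NPC2 was called higher in all 5. The share of all genes called alike in all 5 was not counted. It cannot exceed the neil2 shares (3.28% lower and 5.18% higher). Without the block 7 genes were called lower in neil1, neil3 and wt alike. These were HMGCS1, MVK, FDFT1, SQLE, MSMO1, DHCR7 and INSIG1. The matching share of all genes was not counted either, and cannot exceed the 0.398% called lower in neil1.

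Counts with the block take pairs of the same line as independent and were not recomputed without a line or library. Counts without the block rest on few lines. Without BSO library 12 the neil1 count of 8 was 0, and without line 2 the neil3 count of 16 was 0 (without line 1 it was 6). In neil123 the count of 2 was 0 without line 1, and 1 without BSO library 1B. Without line 1.3 the wt count of 13 was 3. With 1 mean per line, 2 were called in neil1, 3 in neil3, 0 in neil123 and 10 in wt. A fit of the 6 neil1 libraries alone called 0 in neil1.

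Over all 21 replicate pairs the direction was steady. HMGCS1, MVK, FDFT1, SQLE, MSMO1 and INSIG1 were lower with BSO in 21 of 21 pairs, which holds for 1.85% of all genes tested, and NPC2 was higher in 21 of 21, which holds for 3.49%. Together 16 of the 29 genes were lower in 19 or more pairs, compared with 7.77% of all genes. The median of the 29 genes was below the median of all genes in 20 of 21 pairs and ranged from -0.27 in wt pair 1.3A to 0.03 in wt pair 1.1, the exception.

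**Figure D1:**
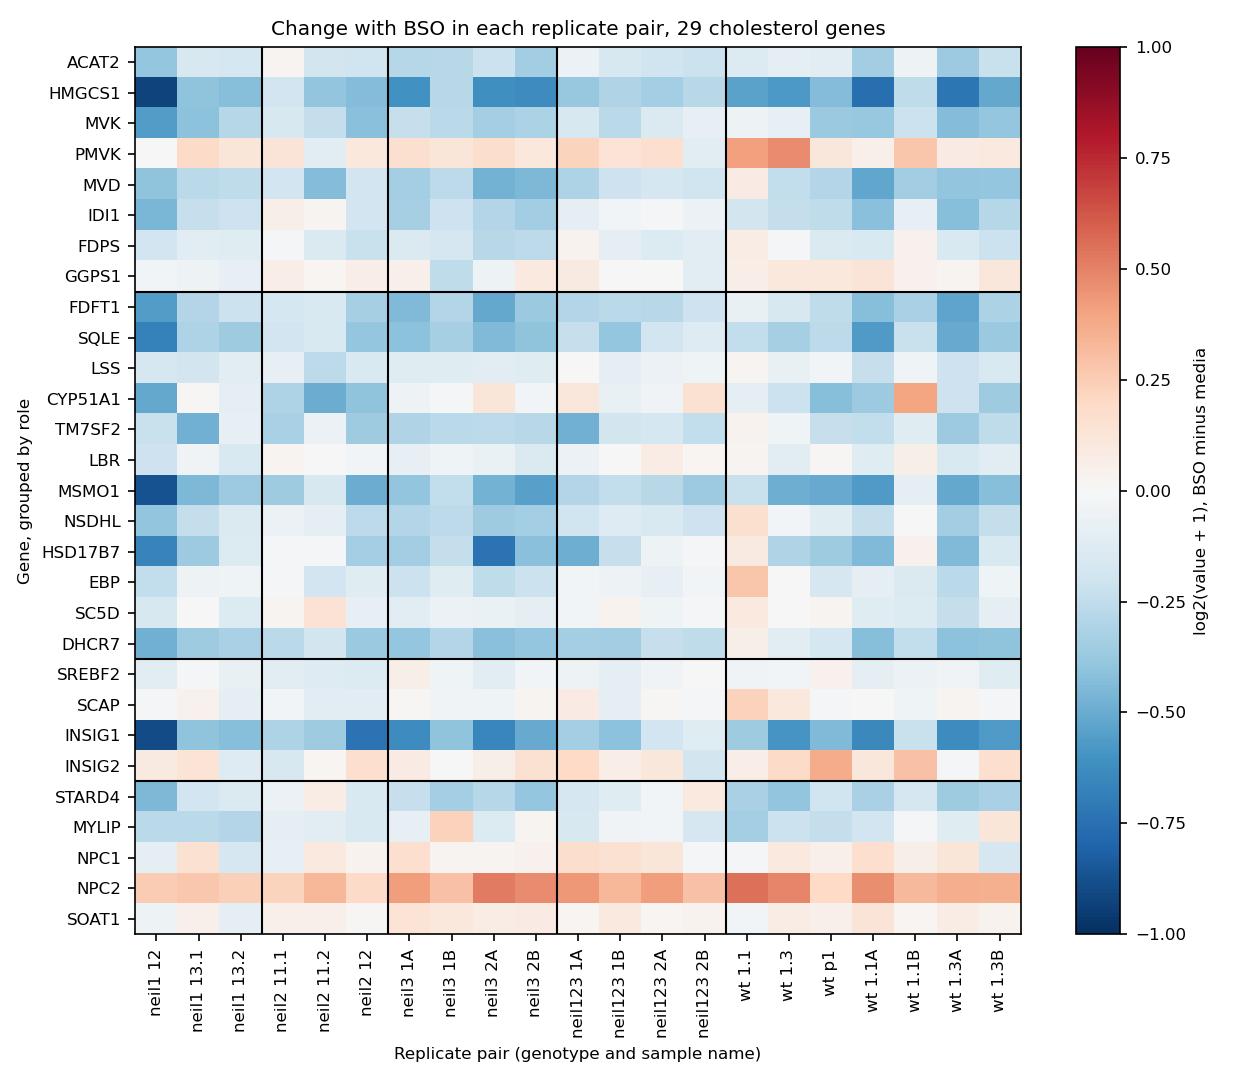
Difference in log2(value + 1), BSO minus media, for 29 cholesterol genes (rows, grouped by role) in 21 replicate pairs (columns, by genotype). Rows of HMGCS1, MVK, FDFT1, SQLE, MSMO1 and INSIG1 are blue (lower with BSO) in all 21 columns and NPC2 is red in all 21.

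**Figure D2:**
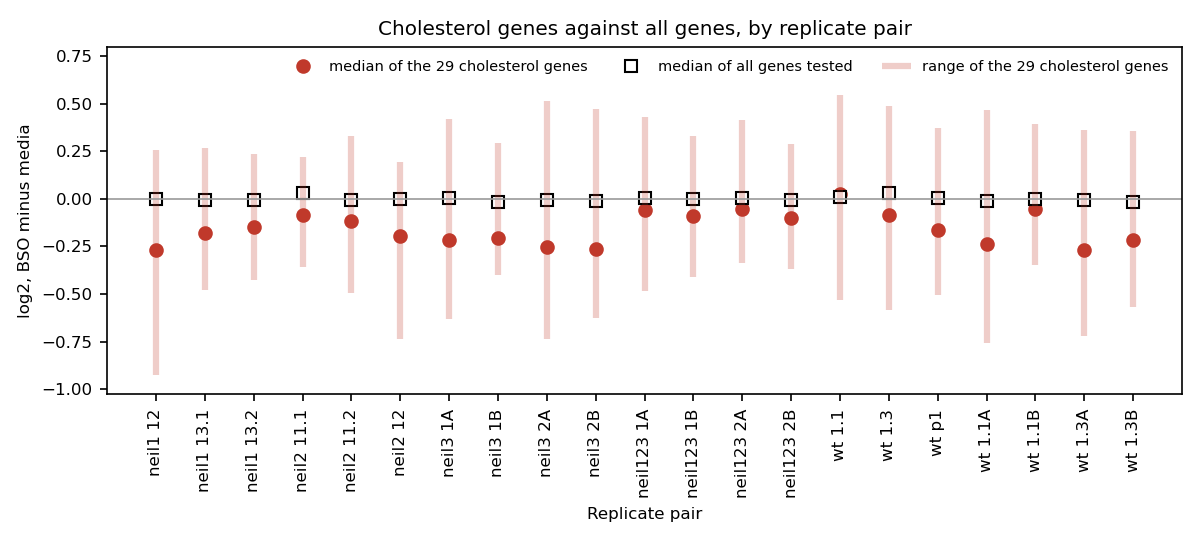
Median of the 29 cholesterol genes (filled circles, with their range as bars) and of all genes tested (open squares) for the log2 difference BSO minus media in each of 21 pairs. The circles lie below the squares in 20 pairs, and wt pair 1.1 is the exception at 0.03.

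Among the mevalonate enzymes, HMGCS1, which makes hydroxymethylglutaryl-CoA, showed the largest fall of the list in neil1 and wt. The values are normalized read counts, in the order of the names. In neil1, HMGCS1 was at 2675, 4634 and 4448 with BSO, against 5087, 6133 and 5968 in media. In neil3, HMGCS1 was at 2802, 3154, 3140.2 and 3039.5 with BSO, against 4268, 3833, 4798 and 4691 in media. In wt, HMGCS1 spanned 2834 to 3866 with BSO (median 3472) and 4199 to 5427 in media (median 4909.6). The groups do not overlap in these genotypes, and the lowest BSO value of neil1 is that of line 12. The log2 change was -0.59 ± 0.15 (SE) in neil1, -0.53 ± 0.13 in neil3 and -0.54 ± 0.10 in wt (limma adjusted p 0.039, 0.0087 and 0.00022), a level 31.3% lower in wt. In neil2, HMGCS1 was at 4987, 4252 and 3089 with BSO, against 5707, 5582 and 4175 in media. In neil123, HMGCS1 was at 4622, 4317, 5222 and 5384 with BSO, against 6000.2, 5326, 6596 and 6528 in media. Both pairs of groups overlap, and the calls were made only with the block. The log2 change was -0.34 ± 0.15 in neil2 (limma adjusted p 0.51, with the block 0.0051) and -0.32 ± 0.13 in neil123 (0.31, with the block 0.0013). Without BSO library 12, or media library biol_rep13.1 or biol_rep13.2, the call of HMGCS1 in neil1 was lost.

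ACAT2, the cytosolic thiolase that starts the pathway, fell in neil3 and wt. In neil3, ACAT2 was at 1824, 1818, 1942 and 1732 with BSO, against 2227, 2209.6, 2251 and 2203 in media. In wt, ACAT2 spanned 1774 to 2164 with BSO (median 1906) and 1975 to 2384 in media (median 2334). The neil3 groups are apart and the wt groups overlap, with log2 changes of -0.28 ± 0.06 and -0.19 ± 0.05 (limma adjusted p 0.0025 and 0.0038). In neil1, ACAT2 was at 1946, 2306 and 2442 with BSO, against 2543, 2578 and 2762 in media. In neil2, ACAT2 was at 2514, 2211 and 2045 with BSO, against 2469, 2515 and 2351 in media. In neil123, ACAT2 was at 2395, 2454, 2228 and 2371 with BSO, against 2496, 2744, 2559.5 and 2752 in media. The neil1 and neil123 groups are apart, and ACAT2 was called there with the block only (limma adjusted p 0.0021 and 0.018). The neil2 groups overlap, and ACAT2 was not called there in either fit.

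Mevalonate kinase, MVK, fell in neil1, neil3 and wt. In neil1, MVK was at 702, 821 and 834 with BSO, against 1035, 1091 and 1018 in media. In neil3, MVK was at 788, 886, 729 and 759 with BSO, against 923, 1066, 923 and 946 in media. In wt, MVK spanned 705 to 872 with BSO (median 809) and 858 to 1075 in media (median 951). The knockout groups are apart and the wt groups overlap slightly. The log2 changes were -0.42 ± 0.08 in neil1, -0.29 ± 0.07 in neil3 and -0.27 ± 0.06 in wt (limma adjusted p 0.0069, 0.011 and 0.00076). The call was lost in neil1 without BSO library 12 or media library biol_rep13.1, and in neil3 without media library 1B or BSO library 2A. In neil2, MVK was at 939, 888 and 739.8 with BSO, against 1052, 1047 and 988 in media. In neil123, MVK was at 930.3, 909, 962 and 1075 with BSO, against 1039.9, 1093, 1065 and 1141 in media. The neil2 groups are apart, those of neil123 overlap, and the block called MVK lower in both (limma adjusted p 0.0041 and 0.038).

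MVD, the decarboxylase that yields isopentenyl diphosphate, fell in neil3 and wt. In neil3, MVD was at 1296, 1656, 1266 and 1374 with BSO, against 1641, 1979.8, 1760.5 and 1880.1 in media. In wt, MVD spanned 1062 to 1557 with BSO (median 1282) and 1208 to 1980.1 in media (median 1585). Both pairs of groups overlap, and the log2 changes were -0.38 ± 0.11 and -0.30 ± 0.08 (limma adjusted p 0.021 and 0.0088). The neil3 call was lost without BSO library 1A, 2A or 2B, or media library 1B or 2B. Wt pair 1.1 was the single pair of 21 in which MVD was higher with BSO. In neil1, MVD was at 1061, 1189 and 1250.0 with BSO, against 1404, 1432 and 1494 in media. In neil2, MVD was at 1260.3, 1273 and 1006 with BSO, against 1441, 1715 and 1149.9 in media. In neil123, MVD was at 1526, 1662, 1748 and 1757 with BSO, against 1889.5, 1919.5, 1969.5 and 2015 in media. The neil1 and neil123 groups are apart, those of neil2 overlap, and the block called MVD lower in all 3 (limma adjusted p 0.00048, 0.0028 and 0.0030).

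IDI1, the isomerase of isopentenyl diphosphate, fell in neil3 and wt. In neil3, IDI1 was at 2457, 2626, 2652 and 2403 with BSO, against 3100.4, 3031, 3247 and 3054 in media. In wt, IDI1 spanned 2341 to 3412 with BSO (median 2722) and 2885 to 3865 in media (median 3231). The neil3 groups are apart and the wt groups overlap, with log2 changes of -0.29 ± 0.07 and -0.27 ± 0.05 (limma adjusted p 0.0064 and 0.00051). In neil1, IDI1 was at 2820.2, 3598 and 3719.5 with BSO, against 3871, 4226 and 4282 in media. In neil2, IDI1 was at 4126, 3887 and 3232 with BSO, against 3971, 3811 and 3700.1 in media. In neil123, IDI1 was at 3232, 3153, 3212 and 3402 with BSO, against 3458, 3209.6, 3234 and 3536 in media. The neil1 groups are apart and were called with the block only (limma adjusted p 0.00027). The neil2 and neil123 groups overlap, with log2 changes of -0.04 ± 0.08 and -0.05 ± 0.07.

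FDPS, the farnesyl diphosphate synthase, fell in neil3 without the block. In neil3, FDPS was at 2541, 2728, 2415 and 2543 with BSO, against 2811, 3066, 2924 and 3052 in media. These groups are apart, and the log2 change was -0.21 ± 0.05 (limma adjusted p 0.0098). In neil1, FDPS was at 2746, 3078 and 3180.3 with BSO, against 3144, 3314 and 3455 in media. In neil2, FDPS was at 3368, 3421 and 3039 with BSO, against 3410.4, 3786 and 3547 in media. Both overlap. In neil123, FDPS was at 2984, 3001, 2804 and 3126 with BSO, against 2906, 3189, 3077 and 3374 in media. In wt, FDPS spanned 2547 to 3209 with BSO (median 2920.2) and 2828 to 3227 in media (median 2970.3). Both overlap too, and among these 4 genotypes the block called FDPS lower in wt alone (limma adjusted p 0.042).

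The remaining enzymes of the branch were not lowered. PMVK, the kinase after MVK, was higher with BSO in 18 of 21 pairs and was called higher in wt. In wt, PMVK spanned 894 to 1214 with BSO (median 943) and 762 to 1123 in media (median 846). The groups overlap (0.21 ± 0.06, limma adjusted p 0.019), and the call was lost without media library 1.1 or 1.3, or BSO library p1. In neil1, PMVK was at 989, 998 and 943 with BSO, against 989.7, 874 and 865 in media. In neil2, PMVK was at 1099, 1003 and 1004 with BSO, against 1004, 1084 and 935 in media. In neil3, PMVK was at 1054, 1050.4, 931 and 932 with BSO, against 945, 968, 823 and 868 in media. All 3 overlap. In neil123, PMVK was at 813, 834, 901 and 806 with BSO, against 698, 760.0, 801 and 866 in media. Here too the groups overlap, and neither fit called PMVK in a knockout. GGPS1, which makes geranylgeranyl diphosphate for protein prenylation, was not called in any genotype in either fit (log2 changes of -0.05 to 0.08).

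Of the 12 enzymes of the sterol branch, 9 had a negative fitted log2 change with BSO in every genotype, and CYP51A1, LBR and SC5D did not. In neil1, FDFT1 was at 7095, 8205 and 8994 with BSO, against 10444, 10036 and 10423 in media. In neil3, FDFT1 was at 6408, 7443, 6902 and 7399 with BSO, against 8719.8, 9128, 9864 and 9546 in media. In wt, FDFT1 spanned 6738 to 8706 with BSO (median 8288) and 9159 to 10353 in media (median 9539.7). FDFT1 is the squalene synthase, and its groups are apart in all 3 genotypes. The log2 changes were -0.35 ± 0.09, -0.41 ± 0.08 and -0.30 ± 0.06 (limma adjusted p 0.039, 0.00084 and 0.00065). Of the 6 neil1 libraries, the neil1 call survived the loss of BSO library biol_rep13.2 only. In neil2, FDFT1 was at 9295, 10003 and 7222 with BSO, against 10510.0, 11108 and 9084 in media. In neil123, FDFT1 was at 8561, 8529, 8895 and 9919.9 with BSO, against 10515, 10302, 10757 and 11461 in media. The neil2 groups overlap, those of neil123 are apart, and the block called FDFT1 lower in both (limma adjusted p 0.0059 and 9.3e-05).

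SQLE, the squalene epoxidase, fell by 26.6% in neil1, 24.0% in neil3 and 22.0% in wt on the log2(value + 1) scale. In neil1, SQLE was at 4187, 5726 and 5243 with BSO, against 6688, 7089 and 6707 in media. In neil3, SQLE was at 3475, 3789.7, 3803 and 3802 with BSO, against 4617, 4766, 5166 and 5014 in media. In wt, SQLE spanned 3522 to 5587 with BSO (median 4246) and 4958 to 6644 in media (median 5347). The knockout groups are apart and the wt groups overlap, the wt libraries without letters being higher in both treatments. The limma adjusted p was 0.0032 in neil1 (lost without BSO library 12), 0.00039 in neil3 and 1.6e-05 in wt. In neil2, SQLE was at 5709.5, 5197 and 4671 with BSO, against 6524, 5790.4 and 6096 in media. In neil123, SQLE was at 4817, 4245, 5004 and 5335 with BSO, against 5662, 5546, 5726 and 5831 in media. Both are apart, and the block called them lower (limma adjusted p 0.0066 and 0.0015).

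MSMO1, a methylsterol oxidase that takes part in removal of ring methyl groups, also fell in neil1, neil3 and wt. In neil1, MSMO1 was at 1503, 2067 and 2167 with BSO, against 2756, 2818 and 2790.3 in media. In neil3, MSMO1 was at 1273, 1492, 1261 and 1240.4 with BSO, against 1675, 1771, 1754 and 1803 in media. In wt, MSMO1 spanned 1234 to 2228 with BSO (median 1622) and 1738 to 2780.5 in media (median 1871). The knockout groups are apart and the wt groups overlap. The log2 change was -0.56 ± 0.10 in neil1, -0.41 ± 0.09 in neil3 and -0.40 ± 0.07 in wt (limma adjusted p 0.0030, 0.0026 and 7.0e-05). The neil1 call was lost without BSO library 12. In neil2, MSMO1 was at 2295, 2341 and 1929 with BSO, against 2937, 2614 and 2728 in media. In neil123, MSMO1 was at 1643, 1631, 1594 and 1805 with BSO, against 2017, 1931, 1931 and 2327 in media. These groups are apart too, and the block called both lower (limma adjusted p 0.0052 and 0.0031).

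NSDHL acts after MSMO1 in the same demethylation and fell in neil1 and neil3. In neil1, NSDHL was at 2501, 2774 and 2790.1 with BSO, against 3283, 3264 and 3092 in media. In neil3, NSDHL was at 2250.4, 2372, 2233 and 2180.2 with BSO, against 2759, 2851, 2856 and 2761 in media. Both are apart, with log2 changes of -0.26 ± 0.07 and -0.31 ± 0.06 (limma adjusted p 0.038 and 0.00040), and the neil1 call survived the loss of BSO library biol_rep13.2 only. In neil2, NSDHL was at 2908, 2649.9 and 2513 with BSO, against 3029, 2816 and 3006 in media. In neil123, NSDHL was at 2609, 2571, 2565 and 2680.5 with BSO, against 2992, 2814, 2849.6 and 3091 in media. In wt, NSDHL spanned 2374 to 3102 with BSO (median 2684) and 2690.4 to 3321 in media (median 2856). The neil123 groups are apart, those of neil2 and wt overlap, and the block called NSDHL lower in neil123 and wt (limma adjusted p 0.013 and 0.010).

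HSD17B7, the ketoreductase of that demethylation, was called lower in neil3. In neil3, HSD17B7 was at 323, 378, 261 and 349 with BSO, against 410.4, 446, 436 and 467 in media. The groups are apart (-0.43 ± 0.12, limma adjusted p 0.021), and the call was lost without BSO library 2A or media library 2B. In neil1, HSD17B7 was at 362, 490.1 and 561 with BSO, against 577, 632 and 616 in media. In neil2, HSD17B7 was at 579.8, 559.8 and 475 with BSO, against 587, 564 and 601 in media. The neil1 groups are apart and those of neil2 overlap. In neil123, HSD17B7 was at 338, 399, 435 and 487 with BSO, against 474, 467, 451 and 490.3 in media. In wt, HSD17B7 spanned 316 to 531 with BSO (median 395) and 418 to 571 in media (median 448). Both overlap, and the block called HSD17B7 lower in neil1 and wt as well (limma adjusted p 0.015 and 0.013).

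DHCR7, the reductase of the last step to cholesterol, was the single enzyme called lower in neil123 without the block. In neil123, DHCR7 was at 4654, 4328, 4847 and 4711 with BSO, against 5899, 5512, 5675 and 5628 in media. The groups are apart, and the log2 change of -0.29 ± 0.07 (limma adjusted p 0.010) lost its call without BSO library 1B. In neil1, DHCR7 was at 4288, 4809.9 and 4209 with BSO, against 5992, 6139.7 and 5272 in media. In neil2, DHCR7 was at 4545, 4811 and 3800.5 with BSO, against 5480.2, 5467 and 4912 in media. In neil3, DHCR7 was at 3779.9, 4449.8, 3804 and 3916 with BSO, against 4946, 5460.0, 5088 and 5116 in media. All 3 are apart, with log2 changes of -0.39 ± 0.08, -0.27 ± 0.08 and -0.37 ± 0.07 (limma adjusted p 0.0054, 0.15 and 0.00025, with the block 0.00012 in neil2). The neil1 call was lost without BSO library 12 or media library biol_rep13.1. In wt, DHCR7 spanned 3911 to 5429 with BSO (median 4363) and 4962 to 5803 in media (median 5222). The wt groups overlap through BSO libraries 1.1 and p1 (-0.25 ± 0.05, limma adjusted p 0.00073).

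LSS, the lanosterol synthase, and TM7SF2, a sterol reductase, were each lower in 20 of 21 pairs, over which the log2 changes were -0.27 to 0.03 and -0.48 to 0.03. The fit without the block called neither, and the block called TM7SF2 in all 5 genotypes and LSS in 4. EBP, the sterol isomerase, was called lower in neil3 only (-0.20 ± 0.05, limma adjusted p 0.012), a call lost without media library 2A. CYP51A1 (lanosterol demethylase), LBR (the other sterol reductase) and SC5D (sterol desaturase) were not called without the block, with log2 changes of -0.40 to 0.04 for CYP51A1, -0.13 to 0.01 for LBR and -0.10 to 0.03 for SC5D. The block called CYP51A1 lower in neil2 (-0.40 ± 0.11, limma adjusted p 0.023) and LBR lower in neil1 (-0.13 ± 0.04, limma adjusted p 0.029).

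**Figure D3:**
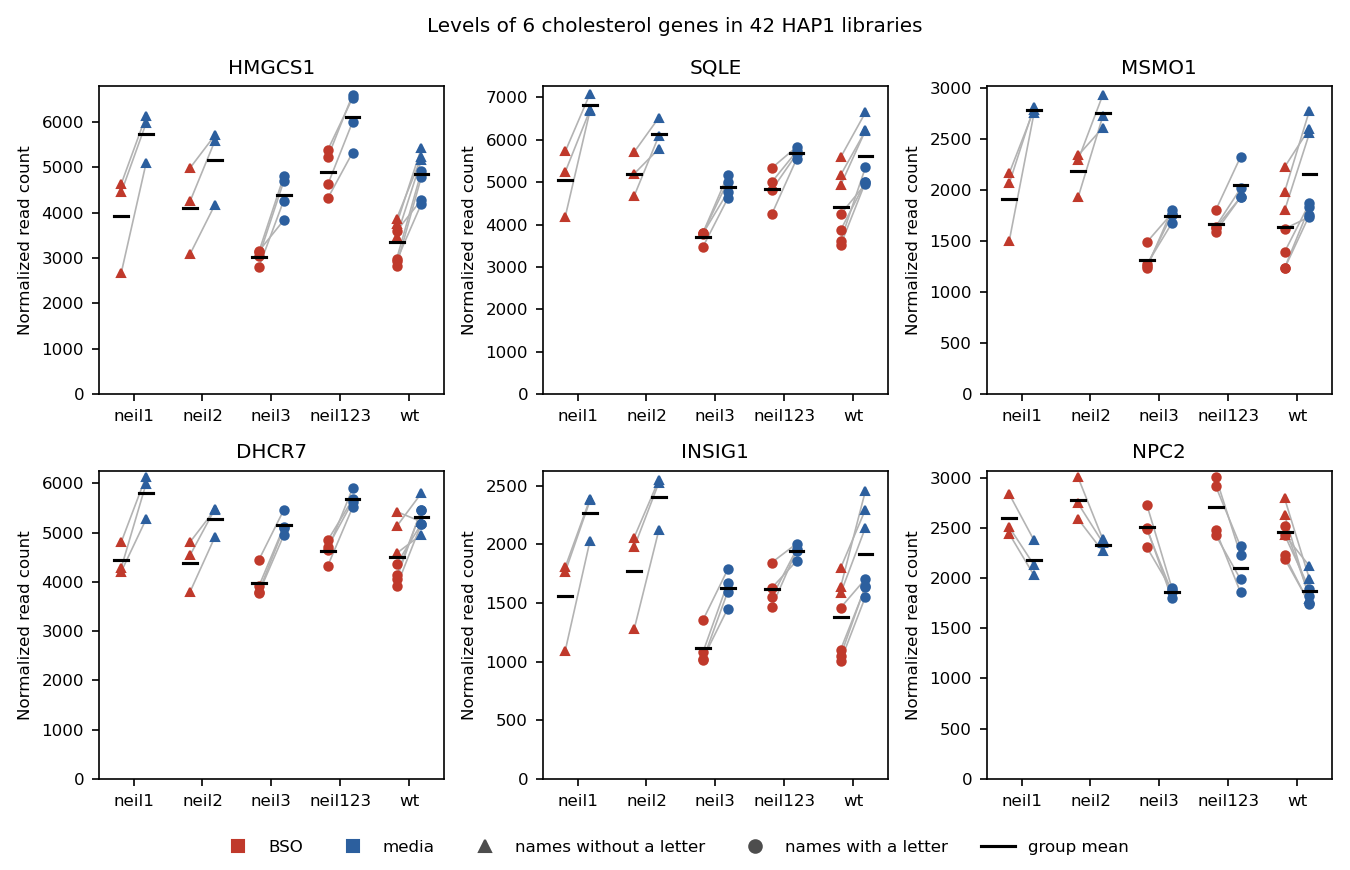
Normalized read counts of HMGCS1, SQLE, MSMO1, DHCR7, INSIG1 and NPC2 in each library (BSO in red, left of media in blue), with lines joining replicate pairs and bars at group means. NPC2 is higher with BSO in all 21 pairs, and the other genes are lower in 20 (DHCR7) or 21 pairs.

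Of the SREBP2 system, INSIG1, the feedback partner of SCAP, was the 1 gene of 4 called with BSO without the block. In neil1, INSIG1 was at 1094, 1805 and 1766 with BSO, against 2030.5, 2387 and 2374 in media. In neil3, INSIG1 was at 1079.8, 1354, 1015 and 1026 with BSO, against 1671, 1785, 1596 and 1452 in media. In wt, INSIG1 spanned 1005 to 1798 with BSO (median 1459) and 1553 to 2456 in media (median 1705). The knockout groups are apart, and the wt groups overlap. The log2 change was -0.57 ± 0.15 in neil1, -0.55 ± 0.13 in neil3 and -0.49 ± 0.10 in wt (limma adjusted p 0.047, 0.0075 and 0.00073), a level 28.9% lower in wt. The neil1 call was lost without BSO library 12 or any of the 3 media libraries. In neil2, INSIG1 was at 2058, 1974 and 1274 with BSO, against 2549, 2526 and 2122 in media. In neil123, INSIG1 was at 1548, 1466, 1628 and 1844 with BSO, against 1957, 1946, 1858 and 2005 in media. These groups are apart as well, called with the block only, with log2 changes of -0.47 ± 0.08 and -0.26 ± 0.07 (limma adjusted p 0.00039 and 0.013).

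SREBF2 itself had log2 changes of -0.12 to -0.03 over the 5 genotypes, and the block called it lower in neil2 (-0.12 ± 0.03, limma adjusted p 0.022). SCAP showed -0.09 to 0.04 and was not called. INSIG2, the INSIG protein that SREBP2 does not induce, was called higher in wt with the block (0.17 ± 0.05, limma adjusted p 0.015) and had log2 changes of 0.01 to 0.07 in the knockouts. INSIG1 was the 1 member of this group of 4 whose RNA was lower in 21 of 21 pairs, while INSIG2 was higher in 16.

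Genes of uptake and handling moved in both directions. NPC2, which binds cholesterol in the lysosome and passes it to NPC1 for export, rose in neil3, neil123 and wt. In neil3, NPC2 was at 2484, 2304, 2726 and 2498 with BSO, against 1859, 1881, 1905 and 1798 in media. In neil123, NPC2 was at 3004, 2912, 2474 and 2426 with BSO, against 2228, 2314, 1856 and 1986 in media. In wt, NPC2 spanned 2193 to 2792 with BSO (median 2429.6) and 1739.6 to 2119 in media (median 1821). The groups are apart in all 3. The log2 changes were 0.43 ± 0.07, 0.37 ± 0.07 and 0.39 ± 0.06 (limma adjusted p 0.00019, 0.0035 and 5.2e-06), a level 31.2% higher in wt. In neil1, NPC2 was at 2835, 2439.6 and 2506 with BSO, against 2375, 2026 and 2129 in media. In neil2, NPC2 was at 2742, 3000.4 and 2587 with BSO, against 2351, 2385 and 2264 in media. Here too the groups are apart, and the block called both higher (log2 changes 0.25 ± 0.05 and 0.25 ± 0.05, limma adjusted p 0.00091 and 0.0016). NPC1 was not called in any genotype in either fit (-0.04 to 0.11).

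STARD4, a soluble sterol transfer protein, fell in neil3 and wt. In neil3, STARD4 was at 722, 669.9, 675 and 653 with BSO, against 845, 850.1, 821 and 854 in media. In wt, STARD4 spanned 675 to 779 with BSO (median 730.4) and 812 to 1002 in media (median 871). Both pairs of groups are apart (-0.31 ± 0.09 and -0.30 ± 0.07, limma adjusted p 0.033 and 0.0030). Of the 8 neil3 libraries, the neil3 call survived the loss of BSO library 1A only. In neil1, STARD4 was at 753, 876 and 1025 with BSO, against 1030.5, 999 and 1134 in media. In neil2, STARD4 was at 1159.6, 1304 and 855 with BSO, against 1211, 1236 and 953 in media. In neil123, STARD4 was at 883, 911, 891 and 969 with BSO, against 994, 992, 906 and 907 in media. These overlap, and the block called neil1 alone lower among them (limma adjusted p 0.0039).

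MYLIP, a ubiquitin ligase that marks lipoprotein receptors for degradation, was lower with BSO in 18 of 21 pairs. In neil1, MYLIP was at 364, 582 and 589 with BSO, against 439, 701 and 721 in media. In neil2, MYLIP was at 549, 534 and 448 with BSO, against 584, 575 and 497 in media. In neil3, MYLIP was at 411, 573, 424 and 513 with BSO, against 435, 487, 466 and 503 in media. All 3 overlap. In neil123, MYLIP was at 537, 654, 762 and 731 with BSO, against 599.6, 671, 778 and 823 in media. In wt, MYLIP spanned 427 to 559 with BSO (median 491) and 489 to 609 in media (median 548). These overlap too, and the block called MYLIP lower in neil1 and wt (limma adjusted p 0.0046 and 0.0079). SOAT1, which esterifies cholesterol for storage, differed by -0.03 to 0.10 on the log2 scale, and the block called it higher in neil3 (limma adjusted p 0.016). In neil3, SOAT1 was at 4001, 3800.5, 3651 and 3723 with BSO, against 3641, 3539, 3469 and 3511 in media. These groups are apart.

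**Figure D4:**
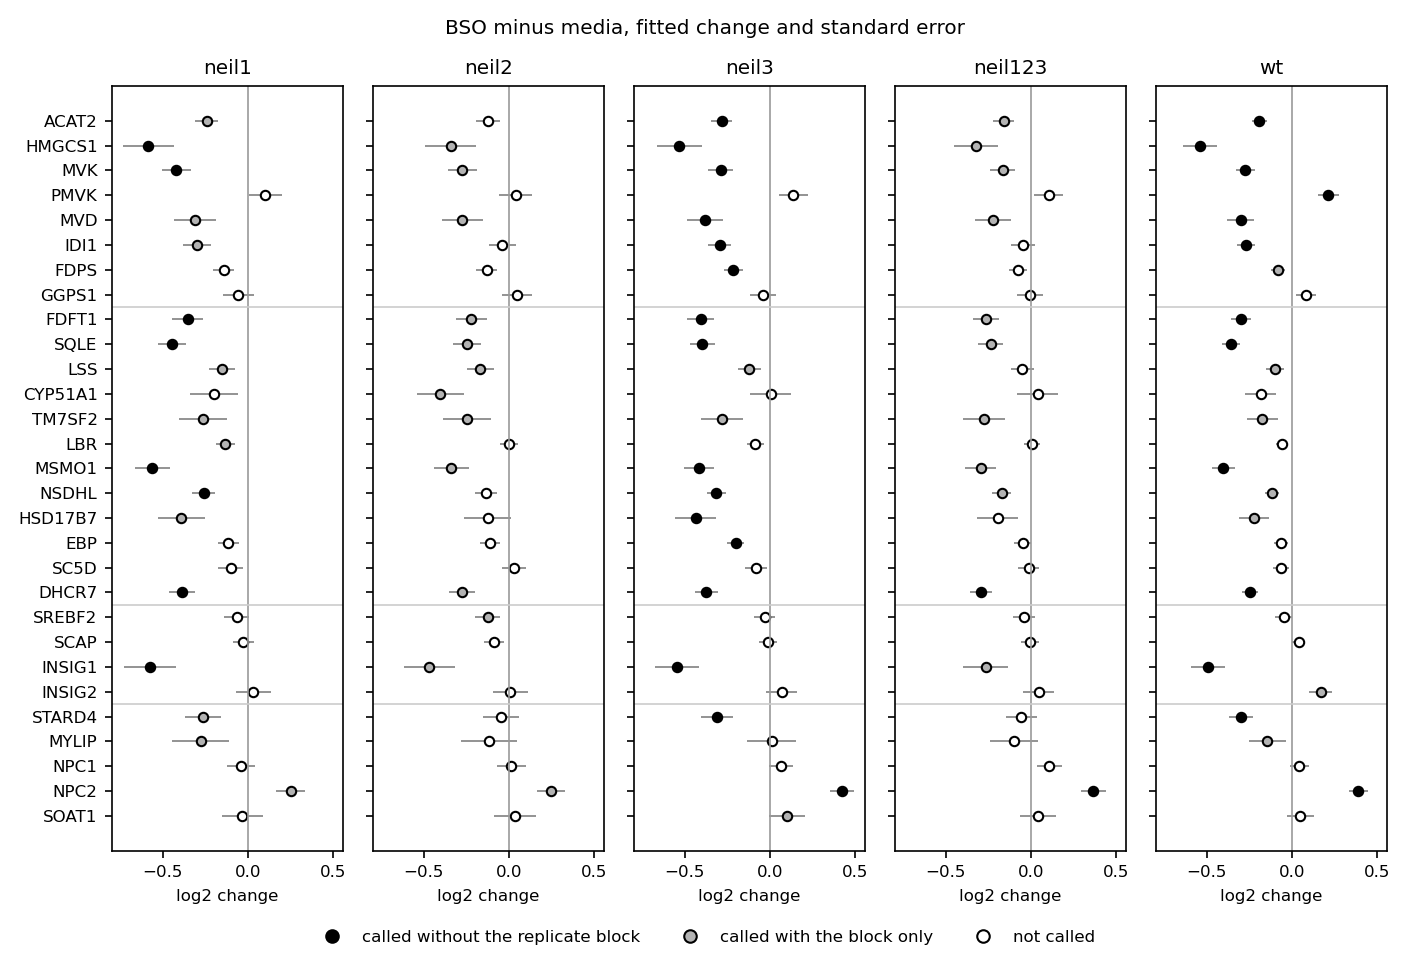
Fitted log2 change, BSO minus media, with its standard error, for 29 cholesterol genes in each genotype. Black points were called by limma without the replicate block, grey points with the block only, and open points by neither fit; HMGCS1, MSMO1 and INSIG1 lie farthest left in wt and NPC2 farthest right.

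Whether the knockouts changed the response to BSO was tested as the difference between a knockout's BSO change and that of wt of the same set. Limma called 0 of the 29 genes in each of the 4 differences, where the share of all genes was also 0, and edgeR and DESeq2 called 0 as well. At an unadjusted p under 0.05, limma had 3 lower in neil1, 2 lower in neil2, 0 in neil3 and 1 higher in neil123. Of all genes, 6.59%, 10.2%, 0.865% and 1.78% passed in these 4 differences, both directions together. The fitted differences of the 29 genes spanned -0.31 to 0.05 in neil1, -0.29 to 0.26 in neil2, -0.19 to 0.14 in neil3 and -0.09 to 0.26 in neil123. In neil123 22 of 29 differences were positive (median 0.09), compared with 54.8% of all genes. In neil1 2 of 29 were positive (median -0.14), compared with 44.6% of all genes.

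With the block DHCR7 fell more in neil1 than in wt of its set, the 1 call among the 29 genes (0.782% of all genes lower and 1.43% higher). Its pairs changed by -0.48 to -0.32 in neil1, against -0.18 to 0.06 in wt, a difference of -0.31 ± 0.06 (SE, limma adjusted p 0.015 with the block and 0.64 without). These are the 3 wt pairs without letters; in the 4 lettered wt pairs the DHCR7 differences were -0.43 to -0.25 (mean -0.37), which overlaps the neil1 pairs. In neil2 the block called 3 genes lower and 1 higher (5.17% and 5.23% of all genes), a share near that of all genes. These were DHCR7 at -0.20 ± 0.06 (adjusted p 0.042), PMVK at -0.29 ± 0.09 (0.036), SCAP at -0.19 ± 0.06 (0.026) and STARD4 at 0.26 ± 0.09 (0.0498, limma with the block for all 4). The lettered wt pairs overlap the neil2 pairs for DHCR7, PMVK and SCAP, and do not for STARD4. No gene of the list was called by limma with the block in neil3 (0 of all genes) or neil123 (0.0140% lower and 0.0209% higher). At an unadjusted p under 0.05, the block had 0 in neil3 and 10 higher in neil123. Of all genes, 3.25% and 8.60% passed there, both directions together. The wt changes themselves varied with the set. In the 3 wt pairs without letters 4 of 29 genes were called lower and 2 higher (all genes 5.15% and 6.01%), with a median of -0.08. In the 4 lettered wt pairs 11 were called lower and 1 higher (all genes 2.49% and 3.13%), with a median of -0.16, and the gap between the sets was not tested.

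Across the 29 genes, the fitted BSO changes of different genotypes were correlated. Pearson's r ranged from 0.75 (neil2 and neil3) to 0.97 (neil1 and wt) over the 10 pairs of genotypes. The 29 points are genes measured in the same libraries, which are not independent replicates.

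Most genes of the list were above wt in media in neil123, and also in neil1, where none was called. In neil123 limma called 3 genes higher and 1 lower of 29 (all genes 2.95% and 2.39%), and 25 of 29 were positive, compared with 49.4% of all genes tested (medians 0.14 and -0.0017). ACAT2 was at 2496, 2744, 2559.5 and 2752 in neil123, against 2368, 1975, 2369 and 2074 in lettered wt, without overlap (log2 difference 0.27 ± 0.06, limma adjusted p 0.0042). Its call was kept without each of 8 libraries in turn, but was lost without wt line 1.1, without neil123 line 2 and with 1 mean per line. HMGCS1 was at 6000.2, 5326, 6596 and 6528 in neil123, against 4792, 4285, 4909.6 and 4199 in wt, also apart (0.43 ± 0.13, limma adjusted p 0.048). INSIG2 was at 262, 321, 269 and 349.9 in neil123, against 225, 232, 266 and 222 in wt, with overlap (0.34 ± 0.09, limma adjusted p 0.018).

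SOAT1 was the gene that fell in neil123 in media, at 2513, 2328, 2527 and 2681, against 3127, 3539.8, 3105 and 3223 in lettered wt, without overlap (-0.37 ± 0.11, limma adjusted p 0.029). MYLIP was at 599.6, 671, 778 and 823 in neil123, against 489, 566, 513 and 512 in wt, apart but called only with the letter of the name as a block, which called 4 higher and 1 lower (all genes 3.81% and 3.20%; MYLIP 0.46 ± 0.14, limma adjusted p 0.056, with the block 0.030). The neil123 calls other than ACAT2 depend on single libraries: HMGCS1 kept its call without 2 of 8 libraries in turn, and INSIG2 and SOAT1 without 3 of 8 each. HMGCS1 lost it without wt 1.1A, 1.1B or 1.3B or neil123 1A, 2A or 2B, INSIG2 without wt 1.1A, 1.1B or 1.3B or neil123 1B or 2B, and SOAT1 without wt 1.1B or 1.3B or neil123 1A, 1B or 2A. Without wt media library 1.1B or 1.3B the count of 4 was 1, and with 1 mean per line it was 0. By line, 23 of 29 genes were above wt in neil123 line 1 and 25 in line 2, compared with 22 and 23 in neil1 lines 12 and 13, 22 and 16 in neil2 lines 11 and 12, and 15 in each neil3 line.

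The single-gene knockouts had fewer calls in media. In neil2 FDPS was called higher, the 1 call among 29 genes, where 4.74% of all genes were called higher and 6.22% lower, so the share called is near that of all genes. Of the 29 genes, 18 were positive (median 0.06), compared with 53.3% of all genes tested (median 0.02). The epithelial markers were also higher in neil2 than in wt, and their part in these differences was not tested. FDPS was at 3410.4, 3786 and 3547 in neil2, against 3048, 3087 and 3227 in wt without letters, apart (0.20 ± 0.06, limma adjusted p 0.033). The call was lost without wt media library 1.1 or 1.3, or neil2 media library biol_rep11.2. The block called 4 higher and 0 lower in neil2 (all genes 6.43% and 7.84%), adding EBP, SC5D and NPC2. These libraries carry no letter, so the block left their log2 differences as they were and changed only the spread shared by all libraries. SOAT1 had the largest neil2 difference, at 3528, 3016 and 5168 in neil2, against 5041, 4461 and 4916 in wt, with overlap, and was not called (-0.34 ± 0.12, limma adjusted p 0.067). Neil2 line 12, the highest of these, lies apart from line 11.

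In neil1 limma called 0 of 29 (all genes 0.174% higher and 0.126% lower). At an unadjusted p under 0.05, limma had 5 higher and 0 lower, compared with 12.2% of all genes in both directions together. The fits with edgeR, DESeq2 and limma with the block (all genes 0.481% and 0.335%) also called 0. Here too the libraries carry no letter, so the block changed only the shared spread. Of the 29 genes, 23 were positive in neil1 (median 0.11), compared with 54.9% of all genes tested (median 0.02). The largest neil1 difference was HSD17B7 at 577, 632 and 616 in neil1, against 499, 488 and 571 in wt, apart but not called (0.23 ± 0.14, limma adjusted p 0.52). In neil3 limma, edgeR, DESeq2 and limma with the block called 0 (all genes 0.188% higher and 0.251% lower, with the block 0.223% and 0.293%). At an unadjusted p under 0.05, limma had 0, compared with 5.53% of all genes. The neil3 differences spanned -0.14 (MYLIP) to 0.13 (SOAT1). MYLIP was at 435, 487, 466 and 503 in neil3, against 489, 566, 513 and 512 in wt, with overlap, and SOAT1 was at 3641, 3539, 3469 and 3511 in neil3, against 3127, 3539.8, 3105 and 3223 in wt, with overlap.

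**Figure D5:**
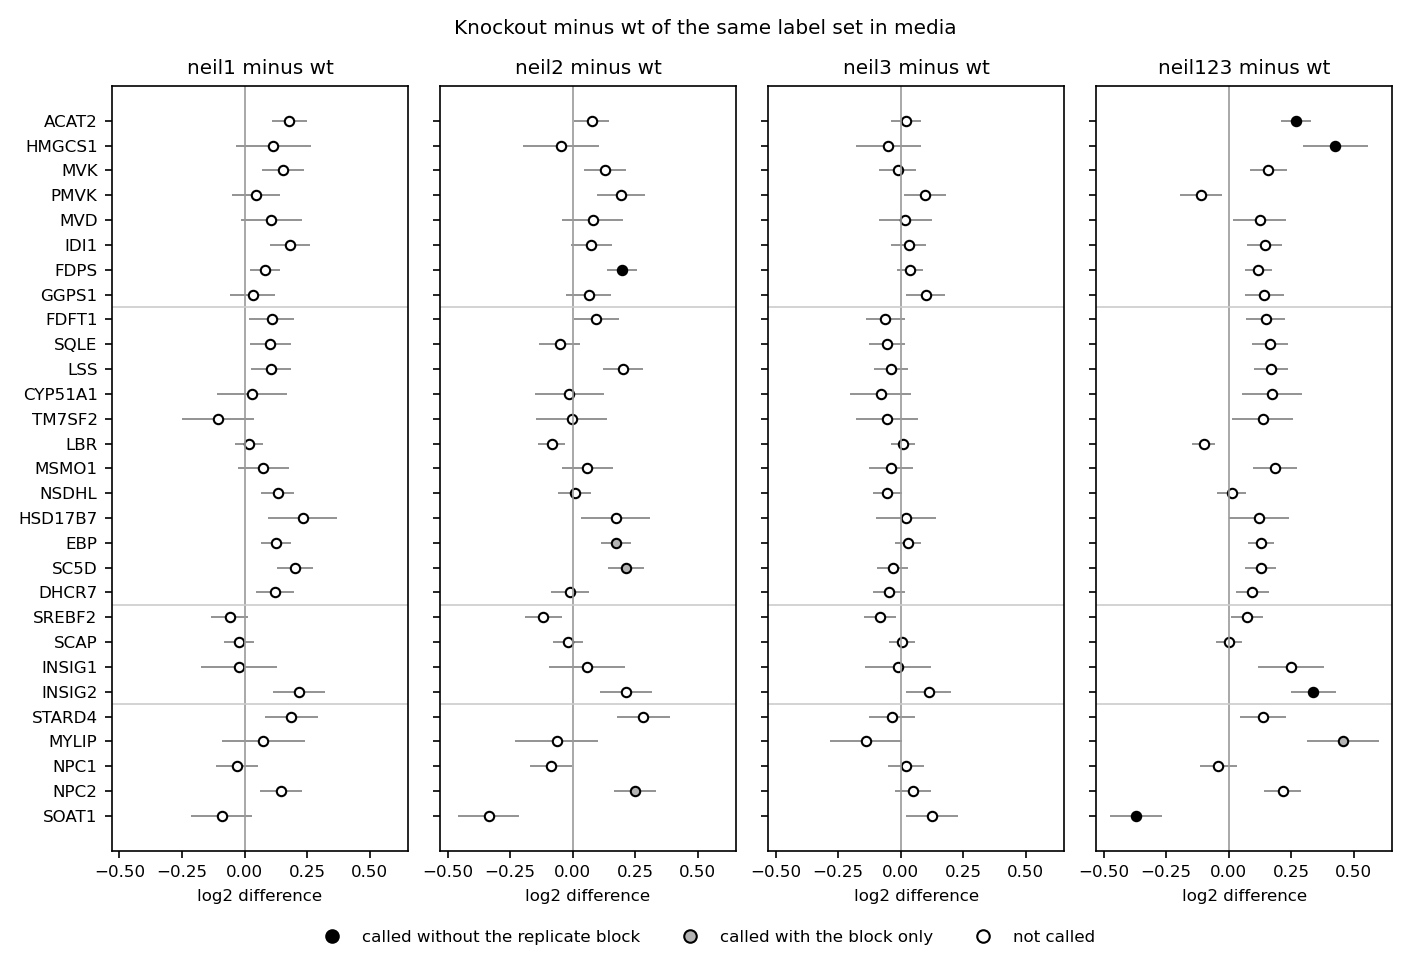
Fitted log2 difference in media, each knockout minus wt of the same set, with its standard error, for 29 cholesterol genes. In neil123 25 of 29 points lie right of 0, with ACAT2, HMGCS1, INSIG2 and SOAT1 called, and in neil3 no point is called.

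The wt sets differed in the list itself. In media, lettered wt minus wt without letters had a median log2 difference of -0.14 over the 29 genes and -0.03 over all genes tested. MSMO1 averaged 1799.7 in lettered wt and 2648 in wt without letters (log2 difference -0.56), SOAT1 3249 and 4806 (-0.56), INSIG1 1635 and 2298 (-0.49), and MVD 1793 and 1349.7 (0.42). These 4 genes have wt libraries that do not overlap between the sets. The sets differ in name and in depth (at most 29.02 M reads in the lettered and at least 30.2 M in the other). They also differ in lines, since wt line p1 is in the set without letters only, and only the lettered wt are labelled biological replicates. Which of these goes with the gap was not tested.

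Other genes of the pathway were taken from lists by function. Of 17 further SREBP2-responsive genes, which include fatty acid synthesis, BSO lowered 4 in neil1 (0.398% of all genes), 1 in neil2 (0.0209%), 8 in neil3 (3.08%), 1 in neil123 (0.300%) and 7 in wt (6.87%). SCD, the stearoyl-CoA desaturase, had log2 changes of -0.39 ± 0.09 in neil1, -0.35 ± 0.08 in neil3 and -0.32 ± 0.06 in wt (SE; limma adjusted p 0.019, 0.0028 and 0.00021). FASN, the fatty acid synthase, fell in wt by 0.30 ± 0.06 (limma adjusted p 0.00051) and ELOVL6, a fatty acid elongase, by 0.24 ± 0.05 (0.00037). The median of the 17 was -0.16 in neil1, -0.14 in neil2, -0.18 in neil3, -0.12 in neil123 and -0.13 in wt.

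Of 12 genes of SREBP processing and sterol-dependent turnover, BSO raised 2 in wt (7.64% of all genes). UFD1, a cofactor of protein turnover at the endoplasmic reticulum, was 1 of these (0.11 ± 0.03, limma adjusted p 0.022). Of 12 genes on the isoprenoid side branches, the same 2 fell in neil3 (3.08% of all genes) and in wt (6.87%). They were RABGGTB, a subunit of Rab geranylgeranyl transferase (-0.34 ± 0.08 in neil3 and -0.21 ± 0.06 in wt, limma adjusted p 0.0075 and 0.015), and NUS1, which acts in dolichol synthesis (-0.17 ± 0.05 in neil3 and -0.14 ± 0.04 in wt, limma adjusted p 0.030 and 0.010). Of 13 tested genes of LXR signalling, efflux and transport, BSO lowered 1 in neil3 (3.08% of all genes) and in wt (6.87%). It raised 1 in wt (7.64%), and the wt shares are near those of all genes. SCARB1, a lipoprotein receptor, fell in neil3 (-0.22 ± 0.06, limma adjusted p 0.011) and wt (-0.16 ± 0.04, 0.0074). NR1H2, which encodes LXR beta, rose in wt (0.17 ± 0.05, limma adjusted p 0.0096). In media, ABCA1, the cholesterol efflux transporter, and OSBPL5, an oxysterol-binding protein, were higher in neil123 (0.81 ± 0.22 and 0.44 ± 0.10, limma adjusted p 0.022 and 0.0036). They were the 2 of these 13 genes called higher there, compared with 2.95% of all genes.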

How the data were processed

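RNA was sequenced from 42 HAP1 libraries, and the values used are the normalized read counts per gene that the authors deposited (30182 entries, 20515 with a gene symbol). Per the submitters' processing notes, Trim Galore, HISAT2, SAMtools, featureCounts and DESeq2 were used with GRCh38 (hg38); no versions or strand setting are given there. The deposited signal is a count divided by a factor per library: in each column, values were whole multiples of 1 read (100% of values, relative tolerance 1e-06), so reads and depth could be recovered (27.2 to 30.9 M per library).

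Values were analysed as log2(value + 1). Genes had to average 10 or more over all libraries, which left 14331 with a symbol. The scale understates changes of low genes. limma (3.58.1, with intensity trend, R 4.3.3) was fitted to all 42 libraries in 12 groups, wt split into the 2 label sets, and p-values were adjusted by Benjamini-Hochberg over all genes tested. The 13 comparisons were the media level of each knockout against wt of its set, the BSO change of every genotype, and each knockout's BSO change minus that of wt of its set; wt was also split by set for description. The script was tested on simulated data. The members and the gene lists were chosen with earlier results of these data known.

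BSO and media libraries of one name were taken as pairs, because deviations from group means correlated at r = 0.19 or more in all 21 pairs, and each of the 21 treated libraries correlated most with its partner. The block is the pair for BSO changes and the letter of the name in media. Libraries of neil1, neil2 and their wt have no letter, so in media the block changes only the shared spread for them. Alternatives were edgeR (4.0.16) and DESeq2 (1.42.0) on recovered reads, other pseudocounts (0.5 and 5), filters, scalings and treatments of line and set, and leaving out each library or line. Values per sample are given for members called in 2 or more comparisons or with the largest change of a comparison. Promoter sequences come from RefSeq on GRCh38.p14 and exon lengths from GENCODE 29. Some genes of the lists are counted but not reported by name.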

Additional observations from a re-analysis of the deposited data

Results flagged for a closer look

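Single libraries stood far from the rest of their group in 10 of 174 groups of levels tested, and chance alone flags about 1 in 20. With BSO in neil3, SQLE was at 3475 in library 1A (others 3790 to 3803), GGPS1 at 391 in 1B (others 478 to 492) and MSMO1 at 1492 in 1B (others 1240 to 1273). In neil3 media, MVK was at 1066 in 1B (others 923 to 946) and SCAP at 4434 in 1B (others 3997 to 4063). SCAP was at 3782 in neil123 BSO library 1B (others 4197 to 4263), and LSS was at 6191 in neil123 media library 1B (others 5908 to 5937). Among lettered wt libraries, IDI1 was at 2722 in BSO library 1.1B (others 2341 to 2406), NPC1 at 1114 in BSO library 1.3B (others 1245 to 1272) and SQLE at 5347 in media library 1.1A (others 4958 to 5001).

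Among 87 sets of pairs, 3 had a pair far from the others in the log2 difference BSO minus media. HMGCS1 was at -0.28 in neil3 pair 1B (others -0.63 to -0.61), CYP51A1 at 0.39 in wt pair 1.1B (others -0.43 to -0.09), and NPC1 at 0.17 in neil3 pair 1A (others 0.03 to 0.04).

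The BSO change differed between a knockout and wt of the same set in 5 of 116 tests with the replicate block (limma adjusted p), and in none without it. DHCR7 had a difference of -0.31 in neil1 (limma adjusted p 0.015 with the block) from the 3 wt pairs without letters (mean change -0.08), whereas the lettered wt pairs had a mean change of -0.37, near the -0.39 of neil1. In neil2 the differences were -0.29 for PMVK (0.036), -0.20 for DHCR7 (0.042), -0.19 for SCAP (0.026) and 0.26 for STARD4 (0.0498, limma with the block for all 4). Every neil1 and neil2 pair of these genes lay outside the range of the 3 wt pairs without letters, except that PMVK in neil2 reached 0.13, against 0.11 to 0.48 in wt. In the 4 lettered wt pairs the changes were -0.43 to -0.25 for DHCR7, 0.05 to 0.27 for PMVK and -0.05 to 0.03 for SCAP. These overlap the neil2 pairs, while STARD4 at -0.354 to -0.165 did not (neil2 -0.156 to 0.077).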

How the results depend on the processing

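The changes of the 29 genes that were called were recomputed under each setting, and none of them reversed direction; 882 such values kept the call and 214 lost it. Changes that were not called, and other genes, were not followed one by one. Counts of members called moved with how replicates were treated and with the lines left out. With the replicate block they were 18 in neil1 (8 without), 13 in neil2 (0), 12 in neil123 (2), 20 in wt (13), 4 in neil2 media (1), 1 in the neil1 difference and 4 in the neil2 difference (0 each); in neil3, neil1 media, neil3 media, neil123 media and the other differences the block kept the count within 1.5 times. With the line as a random block they were 1 in neil2, 5 in neil123, 0 in neil2 media and 2 in neil123 media (4 in the reported fit). With 1 mean per line they were 2 in neil1, 3 in neil3 (16), 0 in neil123, 0 in neil2 media and 0 in neil123 media. Fitting the compared groups alone gave 0 in neil1, 0 in neil2 media and 7 in neil123 media. Without a term for the label set they were 2 in neil1, 8 in neil3, 1 in neil123 and 6 in neil2 media, and with it as an additive term 2 in neil2 media.

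The filter and the tool mattered less: no filter gave 4 in neil1, a mean of 50 or more gave 4 in neil2 media, edgeR 5 in neil1, and DESeq2 4 in neil123 and 4 in neil2 media. Leaving out a line gave 0 and 2 in neil1 (lines 12 and 13), 6 and 0 in neil3 (lines 1 and 2), 0 and 1 in neil123 (lines 1 and 2), and 3 in wt (line 1.3). In neil2 media it gave 0 (wt 1.1, wt 1.3 or neil2 11), 4 (wt p1) and 6 (neil2 12), and in neil123 media 0 (wt 1.1) and 1 (wt 1.3 or neil123 2). Leaving out single libraries gave 0 to 10 in neil1, 0 to 0 in neil2, 12 to 15 in neil3, 1 to 4 in neil123, 12 to 15 in wt, 0 to 5 in neil2 media, 1 to 4 in neil123 media and 0 to 1 in the neil2 difference, and 0 in neil1 media, neil3 media and the other differences. Settings that use fewer samples gave lower counts in some comparisons and higher counts in others, and the cause was not tested.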

Other observations

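In media, other SREBP2-responsive genes were also higher in some knockouts. In neil2, 3 of 17 rose (4.74% of all genes): ELOVL6 (0.25), RDH11 (0.19) and STARD5 (0.57, log2 differences from wt without letters). In neil123, 1 of 17 rose (2.95% of all genes), ELOVL6 (0.21 ± 0.06, limma adjusted p 0.032), and 15 of 17 were positive (49.4% of all genes). UFD1, a cofactor of endoplasmic reticulum protein turnover, rose in neil2 media (0.20). It was the 1 gene called of the 12 in its list, compared with 4.74% of all genes called higher.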
